A study of Mus musculus with 11 samples.

Results

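The comparison concerns chromatin accessibility in alveolar macrophages from tumour-bearing lungs 30 days after tumour cell injection against 15 days. Its members are all peaks of the 2 tumour lists, 10861 at day 15 and 3352 at day 30, together 14213 of the 28944 peaks of the series. They were compared as deposited and again after the day 15 list was cut to its 3352 peaks with the highest −log10 p. Peaks were shared when they overlapped by at least 1 bp. The assay was ATAC-seq: a transposase cuts and tags DNA where chromatin is open, so open regions yield more sequenced tags. Both groups were resident macrophages sorted from lungs of C57BL/6 mice that had received KP or KP-GFP lung adenocarcinoma cells through the tail vein, 4 samples at day 15 and 3 at day 30. The naive group, 4 samples from mice of the same strain without tumours, is used below only as a reference. Which samples received the GFP-marked cells, whether mice were pooled for a sample, the sorting gate, and the age and sex of the mice could not be read from the sources used here.

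Alveolar macrophages live in the air spaces of the lung, clear surfactant and inhaled particles, and depend on GM-CSF signalling and on lipid metabolism. Accessible DNA lies mostly at promoters, which many cell types share, and at enhancers, which tend to be specific to a cell type. With 1 peak list for all samples of a day there was no spread between replicates to set a difference against. No p-value between the days is therefore given, and each 95% interval (Wilson unless stated) covers counting error only. In these bulk samples, fewer cells with an open region and less opening per cell cannot be told apart. A difference in library quality or batch between the days cannot be told apart from either. The depth given next does not measure what part of the tags lay in peaks. Depth differed little: the lowest local background in the lists corresponded to 93.5 tags per 10 kb at day 15 and to 82.2 at day 30, or 0.879 times as much. Pileup below is the number of tags over a peak's summit, and a depth-scaled ratio divides the day 30 pileup by the day 15 pileup after each was divided by its list's depth.

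The labelled cell type was checked against marker genes. Below, a boundary peak of a gene is any peak no farther than 1000 bp from its start or its end. Of 30 genes of alveolar macrophage identity, 10 had a boundary peak at day 15 and 2 at day 30. Of all 21887 protein-coding genes, 6477 and 2804 (12.8%) had one, so these counts alone do not set the identity genes above other genes. The surface markers Siglecf, Itgax and Marco and the products Car4 and Chil3 had none on either day. Of 26 genes of the macrophage lineage, 14 and 3 had one, among them Spi1, the gene of the lineage factor PU.1, with 19 tags at day 15 and no peak at day 30. Boundary peaks at markers of other cells were also few. Boundary peaks were found at 2 of 12 neutrophil genes at day 15 and 1 at day 30, with summed pileups of 31 and 12 tags, and at 1 of 13 T and natural killer cell genes at day 15, Cd3d with 19 tags, and 0 at day 30. The neutrophil genes were Mmp8, with 14 tags at day 15 only, and S100a8, with 17 and 12 tags. The part of such cells in the results was not tested. The 8 B cell, 14 lung epithelial and adenocarcinoma, and 12 endothelial and fibroblast genes had none on either day, including Sftpc, Epcam, Nkx2-1, Pecam1 and Col1a1.

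Sequences upstream of 8 genes are given as examples of promoters with a day 15 peak. The 8 were chosen after their values were seen, and no count below rests on them alone. Each gives the 250 bases before a RefSeq start site (GRCm38.p6, the build called mm10 for the lists), written 5′ to 3′ on the gene's strand. Capitals mark CCAAT boxes (CCAAT or, on the other strand, ATTGG), GC boxes (GGGCGG or CCGCCC) and TATA boxes (TATAAA or TTTATA). The first 4 windows had a peak on both days:
Cebpa (chr7:35119043-35119292, plus strand): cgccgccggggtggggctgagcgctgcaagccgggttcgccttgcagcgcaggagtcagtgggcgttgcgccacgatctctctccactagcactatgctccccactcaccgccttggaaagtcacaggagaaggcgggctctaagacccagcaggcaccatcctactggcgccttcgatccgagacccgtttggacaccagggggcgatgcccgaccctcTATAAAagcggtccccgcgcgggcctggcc
Fos (chr12:85473640-85473889, plus strand): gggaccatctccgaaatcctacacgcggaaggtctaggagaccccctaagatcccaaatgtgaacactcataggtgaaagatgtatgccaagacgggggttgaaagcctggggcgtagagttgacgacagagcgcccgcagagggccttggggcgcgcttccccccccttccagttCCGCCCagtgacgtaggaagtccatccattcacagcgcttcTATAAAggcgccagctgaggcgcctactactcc
Hmgcs1 (chr13:119690101-119690350, plus strand): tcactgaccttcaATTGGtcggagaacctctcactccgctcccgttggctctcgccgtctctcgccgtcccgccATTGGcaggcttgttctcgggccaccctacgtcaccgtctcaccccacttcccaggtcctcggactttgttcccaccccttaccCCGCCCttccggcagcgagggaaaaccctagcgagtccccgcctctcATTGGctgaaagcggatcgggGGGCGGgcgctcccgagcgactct
Hspa4 (chr11:53300480-53300729, minus strand): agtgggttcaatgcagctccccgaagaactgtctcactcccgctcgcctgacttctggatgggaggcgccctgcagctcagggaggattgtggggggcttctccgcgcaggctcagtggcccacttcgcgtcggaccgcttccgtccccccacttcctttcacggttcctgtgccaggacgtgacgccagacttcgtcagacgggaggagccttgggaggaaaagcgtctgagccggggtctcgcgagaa
The other 4 had a peak at day 15 and none at day 30:
Cebpb (chr2:167688665-167688914, plus strand): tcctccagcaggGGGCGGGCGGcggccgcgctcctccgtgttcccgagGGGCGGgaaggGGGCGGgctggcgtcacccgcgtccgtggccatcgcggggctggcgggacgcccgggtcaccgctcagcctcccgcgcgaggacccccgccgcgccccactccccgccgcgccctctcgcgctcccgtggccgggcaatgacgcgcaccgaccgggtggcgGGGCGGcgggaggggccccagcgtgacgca
Srebf2 (chr15:82147019-82147268, plus strand): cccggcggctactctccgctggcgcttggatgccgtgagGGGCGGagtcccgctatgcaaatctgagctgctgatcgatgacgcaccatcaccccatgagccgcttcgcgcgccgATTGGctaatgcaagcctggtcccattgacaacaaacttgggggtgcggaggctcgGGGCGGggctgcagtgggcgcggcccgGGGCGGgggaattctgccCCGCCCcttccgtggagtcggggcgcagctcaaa
Rfxank (chr8:70139198-70139447, minus strand): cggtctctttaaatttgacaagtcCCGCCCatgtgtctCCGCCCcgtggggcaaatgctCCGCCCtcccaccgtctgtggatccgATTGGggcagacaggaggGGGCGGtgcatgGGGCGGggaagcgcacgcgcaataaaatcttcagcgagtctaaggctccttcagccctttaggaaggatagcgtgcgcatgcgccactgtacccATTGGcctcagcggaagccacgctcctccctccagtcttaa
Dusp6 (chr10:99262981-99263230, plus strand): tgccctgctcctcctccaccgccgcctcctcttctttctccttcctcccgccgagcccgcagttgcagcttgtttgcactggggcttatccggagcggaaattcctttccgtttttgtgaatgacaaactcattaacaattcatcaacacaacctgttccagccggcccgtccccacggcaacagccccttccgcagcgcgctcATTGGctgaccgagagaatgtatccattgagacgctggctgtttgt
These letters alone did not sort the windows by outcome. Hmgcs1, an enzyme gene of cholesterol synthesis, had 3 CCAAT boxes and 2 GC boxes, and Hspa4, a chaperone gene, had none of either. Among the windows without a day 30 peak, and with overlapping matches counted, Cebpb had 5 GC boxes and 0 CCAAT boxes, Rfxank 5 and 2, Srebf2 4 and 1, and Dusp6 0 and 1. Cebpa and Fos had a TATA box. Dusp6 was added after its values were seen, because its peak was the day 15 boundary peak with the most tags among the 10 strongest peaks that had no day 30 counterpart.

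Most of the accessible regions called at day 15 had no peak at day 30, while nearly every day 30 region was already in the day 15 list. A day 30 peak overlapped 3121 of the 10861 day 15 peaks, or 28.7% (27.9 to 29.6). In the other direction 3155 of 3352 day 30 peaks, 94.1% (93.3 to 94.9), overlapped a day 15 peak. Regions at gene boundaries were shared more often than regions elsewhere. Of day 15 peaks at a gene boundary 37.8% were shared (36.6 to 39), against 16.5% of those in a gene body (15.3 to 17.9) and 14.6% of intergenic ones (12.8 to 16.5). Within the boundary class, peaks within 1000 bp of a start site were shared in 39.6% and boundary peaks away from any start site in 30.5%. Shared day 15 peaks were stronger and wider, with a median pileup of 27 tags and a median width of 485 bp against 18 tags and 291 bp in the unshared ones.

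Strength at day 15 went with sharing in every region class. When the day 15 list was split into 10 equal groups by −log10 p, the share went from 86.9% in group 1, the strongest, to 58.4% in group 2 and 5.62% in group 10. Boundary peaks were above gene body peaks and above intergenic peaks in 10 of 10 groups, by 2.93 to 16.1 percentage points against gene body peaks and by 2.95 to 25.6 against intergenic peaks. Their 95% intervals were apart from those of gene body peaks in 8 groups and from those of intergenic peaks in 7. In the strongest group 88.9% of boundary, 76.5% of gene body and 76.9% of intergenic peaks were shared. The difference by region class was therefore also present among peaks of like strength.

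**Figure D1:**
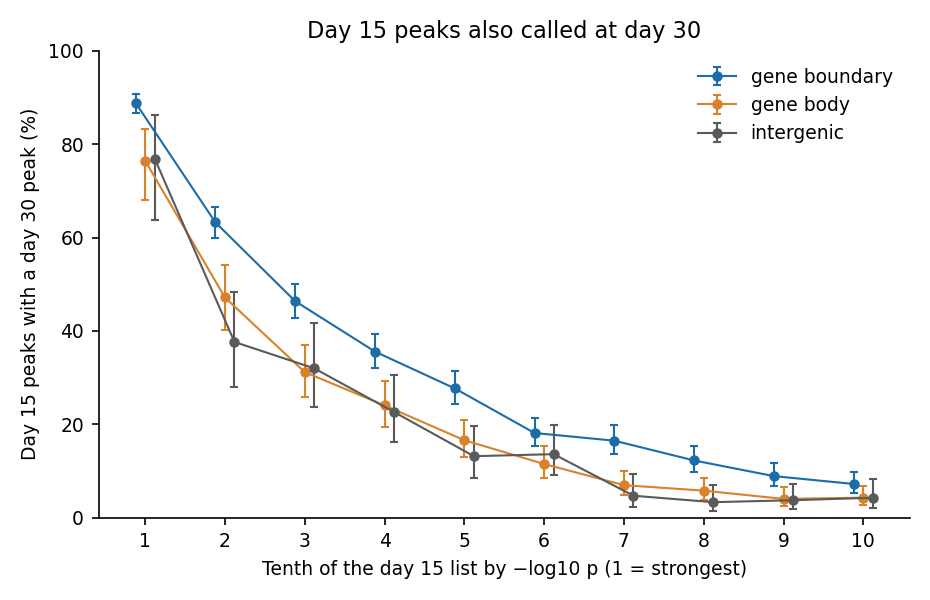
Percentage of day 15 peaks that overlapped a day 30 peak (vertical axis) in 10 equal groups of the day 15 list by −log10 p (horizontal axis, 1 strongest), for gene boundary, gene body and intergenic peaks, with 95% Wilson intervals. Boundary peaks lie above both other classes in all 10 groups, and over all classes the share is 5.62% in the weakest.

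The lowest pileup was 9 tags in both lists, so nearly all unshared day 15 peaks had to reach the day 30 minimum. After scaling to the day 30 depth, 99.5% of the 7740 unshared day 15 peaks did so. Of these 7740, 35.9% (34.9 to 37.0) were at or above the day 30 median of 17. Shared regions had lower pileups at day 30 (median depth-scaled ratio 0.711). A depth-scaled day 15 pileup above the day 30 minimum therefore does not settle whether a single region had a peak at day 30. Stronger day 15 peaks were still shared more often, as given above. Sharing also differed between day 15 peaks with and without a naive peak. Of day 15 peaks that overlapped a naive peak 32.5% were shared with day 30, and of the 1385 that did not, 40 were (2.89%, 2.13 to 3.91). Regions called at day 15 and not in naive mice were thus seldom called at day 30. Their day 15 strength was not compared with that of the other peaks, so a difference by strength cannot be told apart here.

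With both lists cut to 3352 peaks the day 15 list still differed from the day 30 list. Of the top day 15 peaks 61.3% (59.7 to 63.0) overlapped a day 30 peak, and 62.8% of day 30 peaks overlapped a top day 15 peak. Of the 1246 day 30 peaks without a top day 15 peak, 1049 (84.2%) had a weaker peak in the deposited day 15 list. At equal length, the shares of region classes were close, with 74.8% of top day 15 peaks at gene boundaries (73.3 to 76.2), 17.9% in gene bodies and 7.31% intergenic, against 75.9% (74.4 to 77.3), 17.3% and 6.83% at day 30. The shared peaks of these cut lists lay at boundaries in 81.7% and the unshared top day 15 peaks in 63.8%.

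Shared regions had lower pileups at day 30. Overlapping peaks formed 3094 regions, 3008 of them with 1 peak from each list. Their median pileup was 28 tags at day 15 and 17 at day 30. The depth-scaled log2 ratio had a median of −0.49 (−0.51 to −0.47, an interval of the median over regions), a ratio of 0.711. The day 30 value was lower in 2776 regions (89.7%), lower by more than 1.5-fold in 1222 (39.5%) and higher by more than 1.5-fold in 11 (0.356%). The median ratio was 0.702 at boundary regions, 0.742 in gene bodies and 0.751 in intergenic regions. The peaks stayed in place: their summits were a median of 48 bp apart, and 51.6% were within 50 bp. The day 30 peak was the narrower in 87.3% of regions, with a median width of 324 bp against 486 bp.

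The ratio differed between groups by day 15 strength, which is partly built in, since the day 15 pileup both ranks the regions and divides the ratio. Regions ranked high by chance at day 15 would show a lower ratio without any difference between the days. In the strongest of 10 groups of shared regions by day 15 −log10 p, median pileups were 45 and 24 tags and the median ratio was 0.582. In the weakest group they were 16 and 15 tags, with a ratio of 1.02. A weak day 15 region had to pass the day 30 threshold to count as shared, so the ratios of the weaker groups are of regions chosen by their day 30 value. In the strongest group, 225 of 310 regions were lower by more than 1.5-fold at day 30 and 0 were higher by as much.

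**Figure D2:**
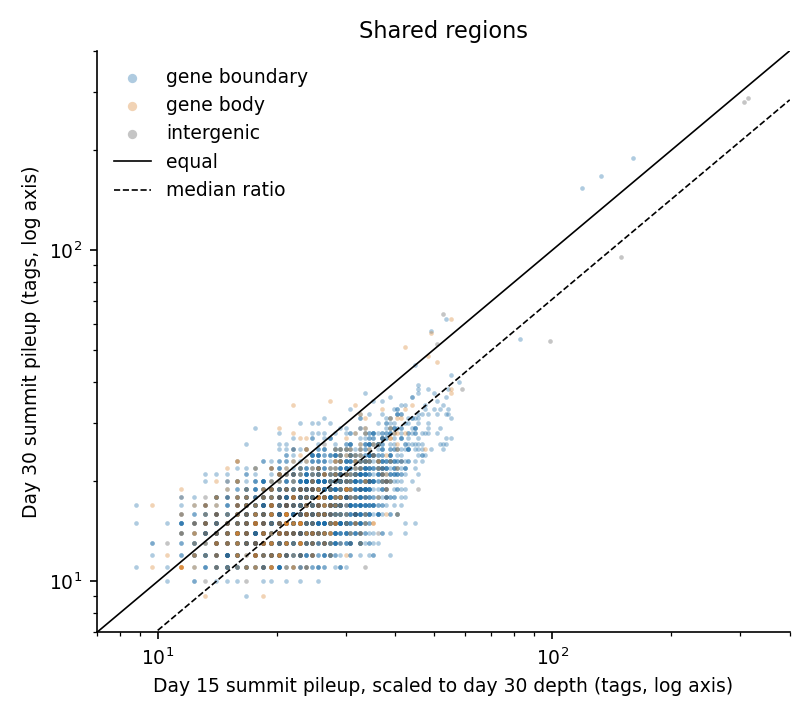
Summit pileup at day 30 (vertical axis, tags, log scale) against the day 15 pileup scaled to the day 30 depth (horizontal axis, tags, log scale) for the 3094 shared regions, coloured by region class. The solid line marks equal values and the dashed line the median ratio of 0.711; most points lie below the solid line, and the few regions above 100 tags are multi-copy or mitochondrial regions with a high local background.

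Among shared regions with at least 30 tags in either list, the lowest ratios were found mostly at start sites. Calr, the gene of the chaperone calreticulin (chr8:84846565-84847312), had 39 tags at day 15 and 12 at day 30, a depth-scaled ratio of 0.35 (exact interval of counting error 0.167 to 0.682). The shared start region of Wdpcp and of Mdh1, a malate dehydrogenase gene (chr11:21571769-21572287), had 48 and 14 tags (0.332, 0.169 to 0.612). The start of Chd8, a chromatin remodeller gene (chr14:52257528-52258069), had 40 and 12 tags, and that of Mgat2, a glycosyltransferase gene (chr12:69183713-69184339), 44 and 14. The other 6 of the 10 lowest were Marchf3, an intergenic region near Cdc42bpb, Bmt2, Rangap1, Mterf3 and Wrnip1, with ratios from 0.31 to 0.361. The intervals of these 10 ratios all lay below 1, although regions picked as extremes of 1299 are expected to look more extreme than a repeat would show.

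Few strong regions were higher at day 30. A region in the body of Cdk8, the gene of a Mediator kinase (chr5:146260919-146261406), had 25 tags at day 15 and 34 at day 30, a ratio of 1.55 whose counting interval (0.896 to 2.70) reached below 1. Ccdc93 (26 and 30 tags), Sp140 (31 and 35), Hdlbp (28 and 30) and Tmpo (29 and 30) also stood among the 10 highest ratios, with intervals that included 1. Of the other 5, 3 lay at the ribosomal RNA gene model Rn18s-rs5 on chromosome 17, a multi-copy sequence with local backgrounds of 69 to 74.7 tags at day 15; the others were an intergenic region far from any gene and a region at the pseudogene Pisd-ps2. For 2 of the 3 regions at Rn18s-rs5 the interval lay above 1 (1.02 to 1.65 and 1.00 to 1.58). The sources used here do not give how reads of repeated sequence were handled.

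Of the strongest shared boundary regions of day 15 outside regions of high local background, most had far fewer tags at day 30. At Lars2, a mitochondrial leucyl-tRNA synthetase gene, the pileup was 61 tags at day 15 and 62 at day 30. Hmgb2, a chromatin protein gene, had 61 and 32 tags, E2f3, a cell cycle transcription factor gene, 62 and 32, Dnpep 66 and 40, and Pja2 63 and 42. Hmgcs1 had 60 and 25, Leprot 63 and 27, Etfdh 60 and 26, and Stt3a 61 and 27. The strongest of all, at the gene model Gm10222, had 94 and 54 tags. Of these 10 regions 9 were lower at day 30 after depth scaling, with ratios from 0.474 to 0.758, and Lars2 stood at 1.16.

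Strong day 15 peaks without any day 30 peak were led by the start of Grhl1, a grainyhead family factor gene (chr12:24571950-24572377), with 42 tags and 53 in the naive list. Second came a region of 40 tags in the body of H2-DMa (chr17:34135327-34135735), whose product loads peptides onto MHC class II. The start of Dusp6, a phosphatase gene that dampens ERK signalling (chr10:99262951-99263357), had 49 tags. The list went on with an alternative start of the kinase gene Rps6ka2 (45 tags), a region in Bach2, a gene of a transcriptional repressor in lymphocytes and macrophages (44 tags), the starts of Tspan14 (43), Wdr47 (35) and Ect2 (35), and regions near Tmem131l (43) and Rpusd4 (36). All 10 also had a naive peak, of 18 to 53 tags. Their depth-scaled day 15 pileups ran from 30.8 to 43.1 tags, against a lowest day 30 pileup of 9. They were picked as the strongest unshared peaks, so high values were built in.

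The 197 day 30 peaks without a day 15 peak were weaker, with a median pileup of 14 tags against 17 in the shared ones, and 124 of them (62.9%) had a naive peak. Their leaders were a region in Mllt10 (21 tags), the start of Cd164, a sialomucin gene (26), a region near Dnttip2 (23), an intergenic region near Nid1 (18), the shared start of Sugp1 and Mau2 (18), Pgpep1 (21), Babam2 (18), the shared start of Tor1aip1 and Tor1aip2 (19), Xkr5 (18) and Parvb (17). Against the cut day 15 list, the leading day 30 peaks were at Hdac2, a histone deacetylase gene (29 tags at day 30 and 20 at day 15, a depth-scaled ratio of 1.65), and at Cox20, Snx7, Lbr, Gm20783, Cln8, Zfp319, Hnrnpa2b1 and Noa1, with a further one near Axin2. The peak at Hnrnpa2b1, shared with Cbx3, had 26 tags at day 30 and 23 at day 15, a ratio of 1.29.

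At the level of genes, boundary peaks were kept in the minority and gained at few. Kept, lost and gained say only whether a boundary peak of the gene is in the list, since no test of a change was possible. Among 21887 protein-coding genes, 6477 had a boundary peak at day 15 and 2804 at day 30. Both days had one at 2726 genes (42.1% of those with a day 15 peak were kept, 57.9% or 3751 were lost), and 78 of the 15410 genes without a day 15 peak gained one (0.506%). In 98.8% of the kept genes a day 30 peak overlapped a day 15 peak, and neighbouring genes can count 1 peak together. The strongest boundary peak of kept genes had a median of 29 tags at day 15, against 17 at day 30, a median depth-scaled ratio of 0.70. It was lower by more than 1.5-fold at 1159 of them (42.5%) and higher by as much at 4 (0.147%). Lost genes had a median of 18 tags at day 15.

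The share of genes kept was higher the higher the day 15 pileup, and each list of genes below is to be read against that. It was 6.91% under 15 tags, 16.1% from 15 to 19, 35.8% from 20 to 24, 57.6% from 25 to 29, 83.1% from 30 to 39 and 97.25% at 40 and over. With lists of equal length, 2850 and 2804 genes had a boundary peak, of which 1969 (69.1%) were kept, 881 (30.9%) were lost and 835 of the other genes (4.39%) were gained. Of those 835, 757 had a weaker boundary peak in the deposited day 15 list.

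**Figure D3:**
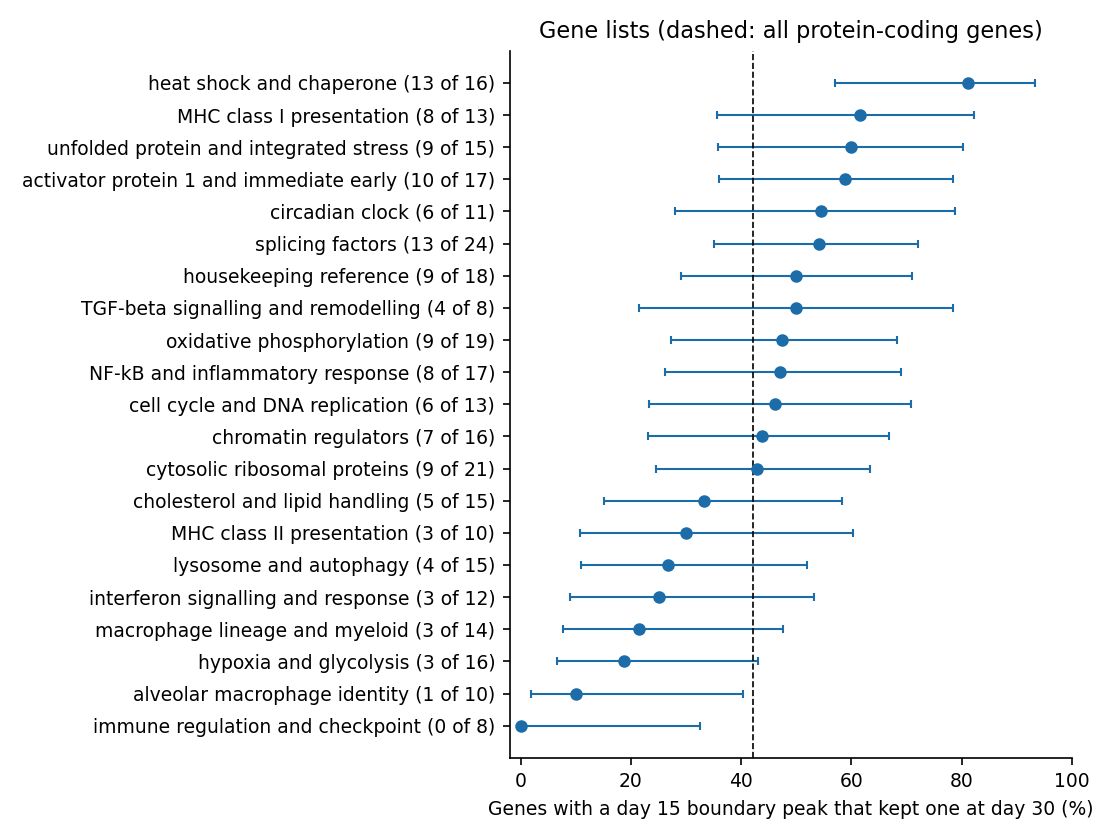
Percentage of list genes with a day 15 boundary peak that kept one at day 30 (horizontal axis), for the 21 lists with at least 8 such genes, with 95% Wilson intervals and the counts in brackets. The dashed line is the 42.1% of all protein-coding genes; only the heat shock list has an interval above it, and only the alveolar macrophage identity and immune regulation lists have one below it. These positions do not hold under every setting: with lists of equal length (69.1% of all genes kept) all 3 intervals include the share of all genes.

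The genes of alveolar macrophage identity were mostly lost. Of 10 with a day 15 boundary peak, 1 was kept (10.0%, 1.79 to 40.4), and the median day 15 pileup of the 10 was 19 tags, against 22 over all genes with one. Cebpb, a transcription factor gene of this cell type, had 32 tags at day 15 and none called at day 30, although genes with 30 to 39 tags were kept in 83.1%. Csf2ra and Csf2rb, which encode the GM-CSF receptor, had 23 and 20 tags, Lpl, the lipoprotein lipase gene, 26, the mannose receptor gene Mrc1 13, and Ctsk, Flt1, Atp6v0d2 and Slc7a2 from 12 to 18, and none of them had a day 30 peak. Bhlhe40, a repressor that sustains resident macrophages, was kept with 23 and 16 tags (ratio 0.791). Perp, a desmosomal gene, was gained with 12 tags and also had 12 in the naive list. With a boundary of 2000 bp 2 of 13 genes of the list were kept, and the interval (4.33 to 42.2) then included the 42.1% of all genes. With the lists cut to equal length, only Lpl of these genes was in the day 15 list and was lost, while Bhlhe40 and Perp counted as gained.

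The wider macrophage lineage list lost 11 of 14 genes and kept 3 (21.4%, 7.57 to 47.6), at a median day 15 pileup of 20 tags. That interval includes the 42.1% of all genes. Kept were Cebpa, a myeloid transcription factor gene (46 and 22 tags, ratio 0.544), Cd68, a lysosomal membrane protein gene (25 and 13), and Sirpa, the receptor that reads the "do not eat me" signal CD47 (29 and 25, ratio 0.98). Lost were the lineage factor genes Spi1 (19 tags), Runx1 (17), Mitf (21) and Tfec (14), the efferocytosis receptor genes Mertk (26) and Axl (18), the lipopolysaccharide coreceptor gene Cd14 (29), Adgre1, which encodes the F4/80 antigen (14), Lyz2 (23), Ctsd (17) and Lgals3 (18). At another start site of Runx1, outside these boundaries, a stronger day 15 peak had 30 tags, with 30 in the naive list and no peak at day 30. Of 4 genes of monocyte-derived and interstitial macrophages with a day 15 peak, Klf2 was kept (37 and 20) and Maf (23), Itgam (15) and Itgal (18) were lost. Ccr2, Ly6c2, Cx3cr1 and C1qa, which mark such cells, had no boundary peak on either day.

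The MHC class I list kept 8 of 13 genes (61.5%, 35.5 to 82.3) and the class II list 3 of 10 (30.0%, 10.8 to 60.3). The intervals overlap and both include the 42.1% of all genes, and the median day 15 pileups were 28 and 19 tags. With −log10 q of at least 5 in both lists the order turned, with 4 of 12 class I genes (33.3%) and 3 of 8 class II genes (37.5%) kept. Of class I, the heavy chain genes H2-K1 (35 and 13 tags, ratio 0.422) and H2-D1 (28 and 20, 0.812), the light chain gene B2m (31 and 15, 0.55), and the chaperone genes Calr, Canx (33 and 23) and Pdia3 (29 and 19) were kept, as were Psme2 and Erap1. The transporter gene Tap1 (19), its partner Tapbp (12), the immunoproteasome genes Psmb8 (16) and Psmb9 (19), and H2-Q7 (26) were lost. H2-Q7 belongs to a family of near-identical genes, at which reads are hard to place.

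Of class II, all the chain genes with a day 15 peak were lost: H2-Aa (16 tags), H2-Ab1 (15) and H2-Eb1 (15), with the invariant chain gene Cd74 (22) and the loading genes H2-DMb1 (14) and H2-DMb2 (11). Each of the 3 chain genes was in a range of pileup in which 16.1% of all genes were kept. Of the regulators, Rfxank was lost (24) and Rfxap kept (27 and 19), and Ciita had no boundary peak on either day. Lgmn, a lysosomal protease gene, was kept (30 and 18). H2-DMa counted as kept through a peak at chr17:34119173-34119790, at the far end of a long RefSeq model of the gene and inside the neighbouring gene Brd2. The stronger region of H2-DMa named above, farther along the same model, was lost, so without that boundary peak class II would have kept 2 of 9.

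A larger share of the inflammatory genes than of the interferon genes was kept, again with overlapping intervals. Both intervals include the 42.1% of all genes. The NF-kB and inflammatory list kept 8 of 17 (47.1%, 26.2 to 69.0). Kept were the subunit genes Rel (30 and 19 tags) and Relb (35 and 24), the inhibitor genes Nfkbia (36 and 20), Nfkbib (22 and 15) and Tnfaip3 (27 and 21), and the targets Tnfaip2, Sod2 and Birc3. Lost were Nfkb1 (18), Nfkbie (18), Nfkbiz (18) and, among the secreted products, Tnf (21), Ccl2 (19), Ccl3 (13), Ccl4 (13), Cxcl1 (18) and Cxcl2 (28). At Nfkbia the strongest day 15 peak was at one end of the gene and the day 30 peak at the other, so its values do not describe 1 region. The interferon list kept 3 of 12 (25.0%, 8.89 to 53.2): the receptor genes Ifnar1 (21 and 18) and Ifngr1 (48 and 25), and Trim25 (29 and 16), whose peaks were also at opposite ends. The kinase genes Jak1 (23) and Tyk2 (27), the signal transducer gene Stat2 (26), and the factor genes Irf1 (26), Irf5 (20) and Irf9 (15) were lost.

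None of the 8 genes of immune regulation with a day 15 boundary peak kept it (upper end of the interval 32.4%), at a median pileup of 19 tags. They were Cd274, which encodes PD-L1 (18 tags), Havcr2, which encodes TIM-3 (13), Lgals9 (20), Vsir (20), the chemokine gene Ccl17 (14), Socs3 (24), and the ectonucleotidase genes Entpd1 (26) and Nt5e (13). Icosl, a costimulatory ligand gene, was gained with 14 tags and had 11 in the naive list. Of the 25 day 15 peaks nearest to a gene of this list and within 50 kb of it, 2 were shared (8.0%, 2.22 to 25.0), against 30.2% of all 9781 peaks assigned in the same way. Most of the 25 lay more than 1 kb from a gene end, where 2 of 19 were shared (10.5%, 2.94 to 31.4) against 17.7% of all such peaks, which lies inside that interval. In the TGF-beta list 4 of 8 genes were kept (50.0%, 21.5 to 78.5), with the 42.1% of all genes inside the interval. Tgfbr1 (24 and 18), Smad2 (30 and 20) and Skil (28 and 23) were among those kept, and Tgfbr2 (18), Smad4 (16), Smad7 (20) and Ski (31) were lost.

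The list of activator protein 1 and other immediate early genes kept 10 of 17 (58.8%, 36.0 to 78.4), at a high median day 15 pileup of 31 tags. That interval includes the 42.1% of all genes. Fos had 31 tags at day 15 and 18 at day 30, Jun 44 and 25, Jund 33 and 22, and Atf3 25 and 22, which is a depth-scaled ratio of 1.00. Junb had 39 and 24 tags, at opposite ends of the gene. Klf2, Klf6 (38 and 23), Ier2 (30 and 19), Ier5 (25 and 15) and Btg2 (28 and 22) were kept as well. Fosl2 (41 tags), Egr1 (37), Dusp1 (33), Zfp36 (28), Maff (26), Nr4a3 (25) and Ier3 (14) were lost, and Fosl2 was the only lost list gene with 40 or more tags, a range in which 97.25% of all genes were kept. Fosb was gained with 16 tags, at chr7:19310287-19310501 upstream of the gene, where the naive list had 20. At equal length 4 of 6 were kept, 2 lost and 7 gained.

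With the lists as deposited, the chaperone list had the largest share of genes kept, while at equal length the NF-kB list kept 6 of 6. Of 16 heat shock and chaperone genes with a day 15 peak 13 were kept (81.25%, 57.0 to 93.4), at a median day 15 pileup of 26 tags, where 57.6% of genes with 25 to 29 tags were kept. Hspa8, Dnajb1, Stip1 and Hsph1 had 33 to 44 tags, in ranges where 83.1% and 97.25% of all genes were kept. Hspa8, the constitutive heat shock cognate gene, had 44 and 31 tags (ratio 0.801), Dnajb1, its cochaperone, 43 and 20 (0.529), Stip1 43 and 19 (0.502), Hsph1 33 and 19, and Hsf1, the transcription factor of the response, 22 and 12. Hsp90aa1 had 26 and 23 tags, a ratio of 1.01. Hspd1 and Hspe1 share 1 peak between them (24 and 17), so the 13 genes rest on 12 peaks. Hsp90ab1 (18), Dnajb6 (17) and Bag3 (23) were lost. With lists of equal length 9 of 10 were kept and 4 gained, so all 13 genes were in the day 30 list and 9 of them in the cut day 15 list.

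Genes of the unfolded protein response were kept in 9 of 15 cases (60.0%, 35.7 to 80.2), with the 42.1% of all genes inside the interval. Of the sensors, Ern1 (21 and 12 tags) and Eif2ak3 (53 and 25) were kept; of the effectors Atf4 (33 and 14) and Ddit3 (27 and 18) were kept and Xbp1 (17) lost. Hspa5, the chaperone of the endoplasmic reticulum, had 44 and 16 tags, a ratio of 0.414, and Hsp90b1 44 and 29. Herpud1 was lost with 32 tags. All 9 kept genes were lower at day 30 after depth scaling.

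**Figure D4:**
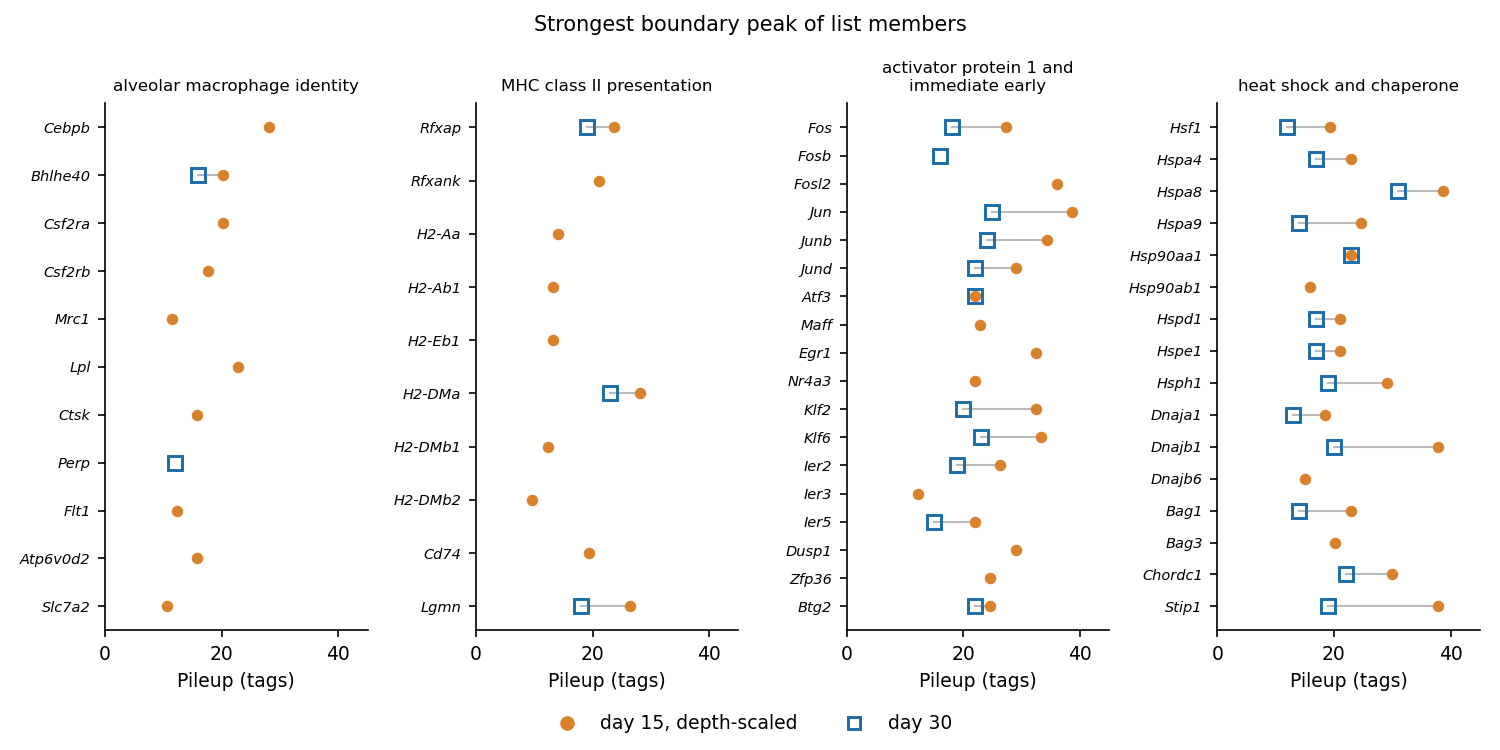
Pileup of the strongest boundary peak (horizontal axis, tags) of each gene of 4 lists that had one, at day 15 scaled to the day 30 depth (filled circles) and at day 30 (open squares). Circles without a square are lost genes and squares without a circle gained ones; 1 of 10 alveolar macrophage identity genes and 13 of 16 chaperone genes with a circle have both.

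Both metabolic lists described here kept a smaller share than the 42.1% of all genes, with intervals that include it. Of 16 genes of hypoxia and glycolysis 3 were kept (18.8%, 6.59 to 43.0): Pfkp (22 and 12 tags), Pkm (25 and 18) and Pdk1 (25 and 15). Lost were the hypoxia-inducible factor gene Epas1 (15), its partner gene Arnt (21), the oxygen sensor genes Egln1 (13) and Egln2 (22), and the glycolytic genes Hk2 (29), Pfkl (26), Pfkfb3 (26), Gapdh (21), Pgk1 (18), Pgam1 (25), Eno1 (22) and Gpi1 (14), with Bnip3 (14). The median day 15 pileup of this list was 22 tags, the same as over all genes. In the cholesterol and lipid list 5 of 15 were kept (33.3%, 15.2 to 58.3). Among these were the synthesis gene Hmgcs1 (60 and 25), Insig1, a regulator of the pathway (40 and 28), the cholesterol transport gene Npc2 (41 and 16) and Acsl1 (32 and 21). Among those lost were the master regulator gene Srebf2 (26) and its escort Scap (20), the liver X receptor gene Nr1h2 (28), Soat1 (18), Npc1 (27), Lipa (29), the droplet coat genes Plin2 (23) and Plin3 (26), and Cpt1a (16).

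In the lysosome and autophagy list 4 of 15 genes were kept (26.7%, 10.9 to 52.0), with the 42.1% of all genes inside the interval. These were the proton pump genes Atp6v1a (26 and 18 tags, in neighbouring peaks that did not overlap) and Atp6v1h (22 and 15), the cathepsin gene Ctsl (25 and 15) and Atg5 (26 and 19). The transcription factor genes Tfeb (22) and Tfe3 (17) were lost, and Atg12, an autophagy conjugation gene, was gained with 18 tags, in a region that also counts for Ap3s1.

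Lists of general cell functions lay near the background of 42.1%. Kept were 9 of 21 cytosolic ribosomal protein genes (42.9%), 9 of 19 oxidative phosphorylation genes (47.4%), 13 of 24 splicing factor genes (54.2%), 6 of 13 cell cycle genes (46.2%), 7 of 16 chromatin regulator genes (43.8%), 6 of 11 clock genes (54.5%) and 9 of 18 housekeeping reference genes (50.0%). Within these lists single genes ranged widely. The replication clamp gene Pcna had 34 and 15 tags, Ccna2 49 and 26, and Cdk1 27 and 21, while the proliferation markers Mki67 (20) and Top2a (17) were lost. Of the Polycomb genes Ezh2 (30 and 13, ratio 0.493) and Eed (32 and 13) were kept and Suz12 (14) was lost. Of the clock repressors Per1 (36 and 23), Per2 (27 and 19), Cry1 (35 and 28) and Cry2 (29 and 15) were kept, Per3 (19) was lost, and Ciart was gained with 13 tags. Hnrnpc (52 and 21) and Snrnp70 (37 and 13) were among the genes with ratios under 0.5.

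The 78 gained genes had 11 to 39 tags at day 30, with a median of 14, and at 58 (74.4%) the naive list had a boundary peak as well. The highest was Rgs17, a regulator of G protein signalling gene, with 39 tags and no naive boundary peak (chr10:5823857-5824701). Day 30 peaks without a day 15 peak had at most 38 tags, so this peak did overlap a day 15 peak. That day 15 peak lay outside the 1000 bp boundary, so Rgs17 counts as gained by the boundary rule and not by a new region. Genes with 26 tags were Cd164 and 9430038I01Rik. The antioxidant genes Sod1 and Prdx5 gained 14 tags each, with 16 and 12 in the naive list, Cdk9, an elongation kinase gene, 15, and the signalling genes Tab2 and Rgs1 15 each. Sod1, Prdx5, Cdk9, Tab2, Rgs1 and Rgs17 were picked after their values were seen. Several gained genes are neighbours that count 1 peak together, such as Sugp1 and Mau2, or Rpl9 and Lias.

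Away from gene ends, day 15 regions were shared less often than over all positions. Of 4080 day 15 peaks more than 1 kb and at most 50 kb from the closest protein-coding gene end, 17.7% (16.6 to 18.9) were shared. Near genes of alveolar macrophage identity it was 5 of 39 (12.8%), near activator protein 1 and immediate early genes 9 of 42 (21.4%), near cholesterol and lipid genes 2 of 24 (8.33%) and near macrophage lineage genes 6 of 32 (18.8%), with intervals that all include 17.7%. The highest shares among lists with at least 5 such peaks were near lysosome and autophagy genes, 3 of 7 (42.9%, 15.8 to 75), and splicing factor genes, 2 of 5, also with intervals that include it. Peaks at gene ends are included in the counts that follow. Of 62 genes with at least 5 day 15 peaks assigned within 50 kb, 22 had none shared with day 30 and 0 had all shared. Over all 9781 day 15 peaks assigned in this way, 30.2% were shared. How many genes with none shared that percentage alone would give was not tested. The 22 included Septin9 (8 peaks of 15 to 23 tags), Runx1 (7 peaks of 12 to 25), Chd7 (7 of 10 to 33), the scavenger receptor genes Cd36 (6 of 13 to 24) and Marco (5 of 12 to 22), the cytokine gene Il1b (5 of 16 to 25), and Mcl1, a survival gene (5 of 19 to 31). These loci were picked by their number of peaks after the values were seen. At Noct 3 of 7 peaks were shared and at Fos 2 of 6.

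Sequence at start sites was described for 21263 RefSeq windows of 300 bases (250 before to 50 after a start) of 17492 protein-coding genes. A day 15 peak overlapped 2386 windows with a day 30 peak (kept) and 3417 without (lost). Kept windows had a median of 25 CpG dinucleotides, lost ones 23 and all windows 13. A GC box was present in 76.9% of kept windows (75.2 to 78.6), 69.7% of lost ones (68.1 to 71.2) and 46.2% of all, and a CCAAT box in 51.5% (49.5 to 53.5), 42.1% (40.5 to 43.8) and 38.2%. Windows of 1 gene can overlap, so they are not independent. Windows were also split into 5 equal groups by day 15 −log10 p, group 1 the strongest. Among windows of like strength, a CCAAT box did not go with a higher share kept: in group 2 it was 52.8% with and 56.6% without, and in group 1 86.7% and 85.7%, with overlapping intervals. With a GC box 88.4% were kept in group 1 against 79.5% without, and 37.4% against 26.9% in group 3, with intervals apart. In group 2 (56.5% and 48.9%), group 4 (20.1% and 20.7%) and group 5 (10.4% and 8.93%) the intervals overlapped. A GC box itself holds a CpG, so this result and that for CpG content below are not separate.

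CpG content went with keeping at like strength. The windows were further split into 4 classes by CpG count. In strength group 3 the share kept was 22.2% (18 to 26.9) in the class with the fewest CpG, then 32.7% and 39.1%, and 45.8% (40.1 to 51.6) in the class with the most, while the median day 15 pileup of the 4 classes was 21 to 22 tags. In group 2 the classes with the fewest and the most CpG had 42.5% and 61.8%, and in group 4 12.9% and 24.9%. In groups 1 (81.9% and 89.4%) and 5 (7.26% and 10.8%) their intervals overlapped. Of the motifs searched, a loose form of the serum response element (CC, any 6 bases, then GG) also had intervals apart and was found in 90.3% of kept, 88% of lost and 77.4% of all windows.

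**Figure D5:**
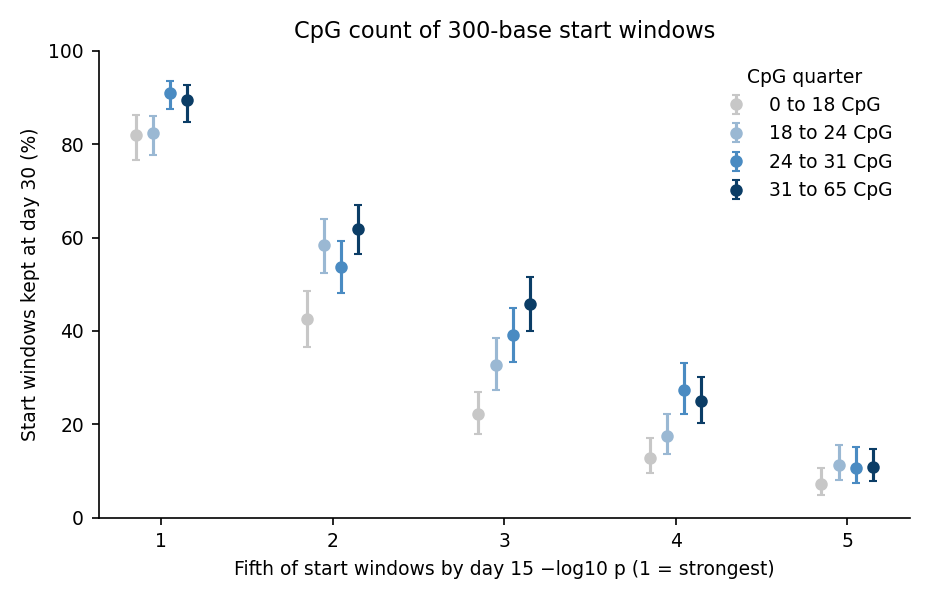
Percentage of start windows with a day 15 peak that also had a day 30 peak (vertical axis) by group of day 15 −log10 p (horizontal axis, 1 strongest) and class of CpG count (shades), with 95% Wilson intervals. Adjoining classes can share a count at their border; in group 3 the share is 22.2% in the class with the fewest CpG and 45.8% in that with the most.

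The other 13 of the 16 motifs differed by at most 2.1 percentage points between kept and lost windows, with overlapping intervals. Searched on both strands, they were present in these shares of kept and lost windows and, in brackets, of all windows. The ETS motif CCGGAAG was in 24% and 23.9% (11.6%), the PU.1 motif GAGGAAGT in 3.48% and 3.34% (3.13%), the cyclic AMP element TGACGTCA in 4.40% and 4.33% (2.23%) and its core TGACGT, which lies within it, in 16.9% and 14.9% (8.49%). The AP-1 motif TGANTCA was in 4.36% and 3.75% (6.99%), the E-box CACGTG in 10.6% and 10.5% (7.84%), the NRF1 motif in 2.93% and 2.84% (1.33%) and the YY1 motif in 2.26% and 1.79% (0.889%). The TATA box was in 4.36% and 5.33% (12.6%), the heat shock element GAANNTTC in 5.62% and 5.24% (7.21%), a loose NF-kB form (GGG, any 5 bases, then CC) in 73.3% and 71.2% (57.0%), an interferon response form (GAAA, any 2 bases, then GAAA) in 2.18% and 2.60% (3.35%) and the RFX site GTTGCC in 13.7% and 13% (12.6%). The NRF1 and YY1 motifs were each searched as 1 fixed string. The NF-kB form and the GC box can share bases. Among the 86 gained windows a CCAAT box was in 26.7% (18.5 to 36.9), against 51.5% of kept windows. These 2 sets were not compared at like strength. The box was more common in strong day 15 windows. In strength group 1, 715 windows had it and 446 did not, and in group 5, 401 had it and 760 did not.

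By chromosome, the share of day 15 peaks with a day 30 peak lay between 26.2% and 36.6% on the autosomes. It was lowest on the X chromosome, at 19.7% (14.4 to 26.2, 173 peaks), and highest on chromosome 18, at 36.6% (31.4 to 42.1, 309 peaks). Both were singled out after the values were seen among 20 chromosomes, and only the chromosome 18 interval and the X interval exclude the 28.7% of all day 15 peaks.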

How the data were processed

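ATAC-seq covered 4 samples at day 15 and 3 at day 30, and the authors deposited 1 peak list for each group. The submitters' processing notes name the aligner Bowtie2 (version 2.3.4.1), the peak caller MACS2 (version 2.1.1) and the mouse build mm10. Their settings, the read filter, any shift for the transposase's cut site and whether reads were pooled before peak calling are unknown here. The lists as deposited give for each peak a score, a fold over local background, the −log10 p and −log10 q of the peak caller, and a summit offset; the score was 10 times the −log10 q, cut to a whole number, in 100% of day 15 and day 30 rows. All are the authors' values, used here to rank and describe peaks.

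From fold and −log10 p, the pileup and background at each summit were worked out (fold taken as the ratio of pileup + 1 to background + 1, p as a Poisson upper tail). The values found gave back the deposited −log10 p to within 0.000193 at day 15 and 0.000144 at day 30. With simulated peaks of known pileup, built on the backgrounds of each tumour list, 100% were recovered. The true pileups of the deposited peaks are not known. The lowest background, over 10 kb, gave the depth. A high local background is over 5 times that value. Python 3.11.15, numpy 2.4.6, pandas 2.3.3, scipy 1.17.1 and matplotlib 3.10.9 were used, and the steps were tested on simulated data. Gene ends and promoter windows came from RefSeq (GRCm38.p6; 21887 protein-coding genes), which held all but 2 (Mx1, Trac) of the genes of the 27 lists, 571 matched genes in all, 7 of them in 2 lists. Peak sequences were not used here, for want of a genome.

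The members, lists and tests were chosen with earlier results of these data known. Named were the 10 strongest unshared peaks in each direction (also with lists of equal length), the 10 highest and lowest ratios among shared regions of at least 30 tags, the 10 strongest shared boundary peaks, and up to 4 kept, 4 lost and all gained genes of each list in list order; further list genes were added after their values were seen, as were the choice of the 8 promoters and the loci with at least 5 peaks. Alternatives were other overlaps, ranks, thresholds, boundaries and scalings. Values of a few list genes are not reported here.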

Additional observations from a re-analysis of the deposited data

How the results depend on the processing

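No paired analysis was possible because each day has 1 peak list, whatever replicate numbers the samples carry, and for the same reason no replicate could be left out. The median ratio at shared regions stayed below 1, and boundary peaks were shared most of the 3 classes, under all alternatives run for them; 43 of the values that answer a comparison moved by less than their counting interval or within 1.5 times, and 25 moved. With a reciprocal overlap of 50% the shared percentages were 21.8 of day 15 peaks, 70.6 of day 30 peaks and 48.6 of top day 15 peaks, and 28.3, 13.1 and 11.6 of boundary, gene body and intergenic day 15 peaks. With the summit required inside the other peak, 92.8% of day 30 peaks were shared. With −log10 q of at least 5 in both lists the percentages were 24.3 of day 15 peaks, 59.4 of top day 15 peaks, and 31.8, 12.4 and 12 by class. The share of top day 15 peaks was 57.3% ranked by fold, 63.1% ranked by pileup, 53.9% among the top 1000 and 58.4% among the top 2000 of both lists. Boundary peaks were shared in 39.1% with a boundary of 500 bp and 36.5% with 2000 bp, where gene body peaks were at 15.2%. With lists of equal length, 881 genes were lost and 835 gained. The median log2 ratio at shared regions was −0.52 with the local background subtracted, −0.68 without depth scaling, −0.74 in the strongest of 10 groups of day 15 peaks and −0.31 as a ratio of folds. The causes of these moves were not tested. With −log10 q of at least 5, 34.9% of genes were kept against 42.1%, and 35 list genes went from kept to lost. The side on which a list lay of the share of all genes was less stable. With lists of equal length, where 69.1% of all genes were kept, the MHC class II list (3 of 4) and the lysosome list (3 of 4) went from below it to above, and the activator protein 1 (4 of 6), oxidative phosphorylation (6 of 9) and TGF-beta (1 of 2) lists from above to below, all with intervals that include it. The interval of the heat shock list also included it there (9 of 10, 59.6 to 98.2). With −log10 q of at least 5, the intervals of the alveolar macrophage (0 of 6, up to 39) and immune regulation (0 of 5, up to 43.4) lists included the 34.9% of all genes. At that threshold the MHC class I list (4 of 12) and the chromatin (3 of 11) and ribosomal lists (5 of 18) lay below it and the class II (3 of 8) and cholesterol lists (5 of 14) above. With start sites only, that of the alveolar list (0 of 5, up to 43.4) included 42.9%. Intervals below the share of all genes appeared for hypoxia and glycolysis (1 of 6) and interferon (1 of 5) at equal length. With a boundary of 2000 bp, hypoxia and glycolysis also lay below the 42.1% of all genes (3 of 17, 6.19 to 41.0). The activator protein 1 list lay above it there (13 of 20, 43.3 to 81.9). Counting start sites only, an alternative chosen after seeing the data, 3206 genes were lost and 62 gained.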
